A study of Homo sapiens with 6 samples.

Results

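The translation initiation factors (EIF) and elongation factors (EEF) of human cells were followed through a knock-down of HOTAIRM1, a long non-coding RNA transcribed from the HOXA gene cluster. Cells of 3 glioblastoma lines (LN-229, T98G, U251) were harvested for RNA sequencing 72 h after transfection with a siPOOL, a mixture of many siRNAs, directed at HOTAIRM1 (siHOTAIRM1) or with a non-target siPOOL (siControl). Each cell line gave 1 library per condition, so the 3 cell lines served as replicates and no culture was repeated within a line. All 6 libraries came from cells transfected with lipid reagent, and neither group was left untransfected. The factors were chosen by symbol, as genes beginning with EIF1 to EIF6 or EEF1 to EEF2, without pseudogenes, hyphenated symbols and the EIF2AK kinases. This gave 58 of the 59074 listed genes, 49 of them initiation and 9 elongation factors. A mean of at least 1 CPM (reads of a gene scaled to a fixed library total) was reached by 57. The remaining one, EIF4E1B, an eIF4E relative known from germ cells, had at most 1 read in any library. EIF1AY, on the Y chromosome, is included in the counts without its values.

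HOTAIRM1 was at 1.99 CPM in siControl and 0.952 CPM in siHOTAIRM1 cells of LN-229, at 3.49 and 2.15 CPM in T98G, and at 1.27 and 0.623 CPM in U251, which are reductions of 52.2, 38.5 and 51.1%. Sequencing depth was 52.3 to 104 M reads per library. The listed genes accounted for 42.9 to 67.2% of the CPM scale, from 50.2 to 42.9% on knock-down in T98G and from 67.2 to 55.9% in U251, so changes are also given relative to the median change of all 14294 genes tested in the same line. Vimentin (VIM) was abundant in all libraries (254 to 1794 CPM), whereas NES and SOX2, markers of neural stem and glioma cells, were below 1 CPM in T98G, and GFAP exceeded 1 CPM only in U251. PTPRC, RBFOX3, EPCAM and PECAM1, which mark leukocytes, neurons, epithelium and endothelium, stayed at or below 0.523 CPM. In such bulk libraries, fewer cells with a transcript and less transcript per cell cannot be told apart.

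Translation starts when eIF2, carrying the initiator tRNA, joins eIF1, eIF1A, eIF3 and eIF5 on the small ribosomal subunit, and eIF4F (the cap-binding eIF4E, the scaffold eIF4G and the helicase eIF4A) brings in the mRNA. eIF2B recharges eIF2 with GTP, eIF5B joins the large subunit, and EIF6 keeps free large subunits from joining too early. During elongation eEF1A delivers aminoacyl-tRNA, the eEF1B subunits (EEF1B2, EEF1D and EEF1G) recharge eEF1A, eEF2 moves the ribosome along, and eIF5A helps it past difficult stretches. Many of these mRNAs begin with a terminal oligopyrimidine (TOP) tract, through which mTOR controls their translation.

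Levels between genes were compared as CPM per kilobase of transcript, averaged over both libraries of a line. EEF1A1 stood highest of all factors in each line, at 586, 325 and 842 CPM per kb in LN-229, T98G and U251. EIF4A1 was the highest of eIF4F and its partners (226, 165 and 384 CPM per kb). EEF2 reached 148, 103 and 328 CPM per kb, far above EEF2K, the kinase that inactivates it (2.89, 3.32 and 3.24). In the order of the levels EEF1A1 was therefore followed by EIF4A1 in all lines, while the next place was held by EEF1G in LN-229 and T98G (157 and 147) and by EEF2 in U251.

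**Figure D1:**
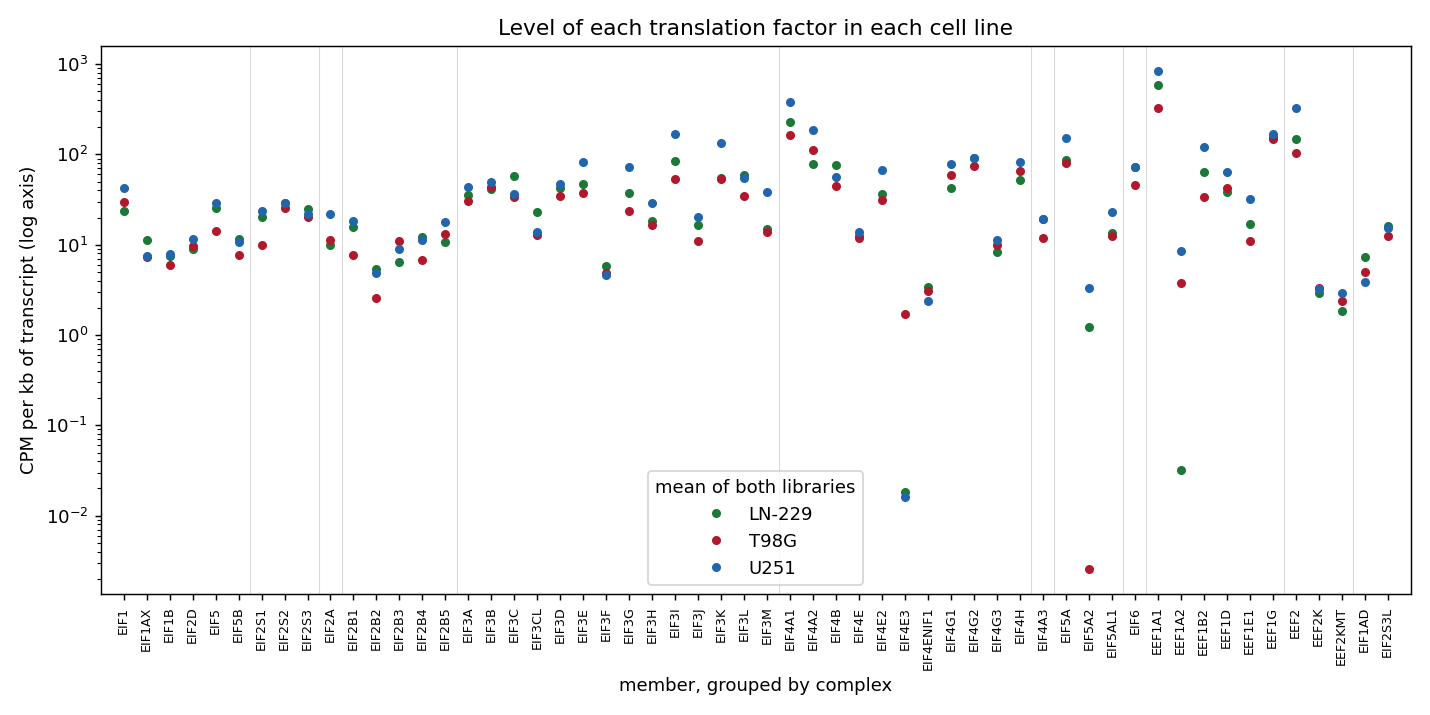
Level of each tested factor except EIF1AY in CPM per kb of transcript (log axis), with 1 point per cell line that is the mean of its siControl and siHOTAIRM1 libraries and vertical lines between complexes. EEF1A1 stands highest in every line, at 325 to 842 CPM per kb, and EEF1A2, EIF4E3 and EIF5A2 each drop far below the rest in at least 1 line.

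Within the complexes the subunits were uneven. The 3 eIF2 subunits stayed within 1.44-fold of each other in LN-229 and 1.34-fold in U251, but T98G held EIF2S1, the subunit that stress kinases phosphorylate, at 10.0 CPM per kb beside 25.2 for EIF2S2. The eIF2B subunits were lower, with medians of 10.7, 7.76 and 11.4 CPM per kb in LN-229, T98G and U251, and EIF2B2 was the lowest of them in each line (5.40, 2.56 and 4.84). EIF3I was the highest of the 14 eIF3 genes in each line (84.1, 54.1 and 170 CPM per kb) and EIF3F the lowest (5.82, 4.83 and 4.63). The value of EIF3F was divided by an annotated transcript of 6920 bases, so a shorter transcript in these cells would put it higher. EIF2S2 led the eIF2 subunits (29.0, 25.2 and 29.2), EIF5A its own family (87.6, 79.9 and 150), and EIF5 or EIF1 the start-site and scanning factors.

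For several factors the cell lines shared the main paralogue and differed in a minor one. EEF1A2, the eEF1A form known from neurons and muscle, was at 0.0567 and 0.0578 CPM in the siControl and siHOTAIRM1 libraries of LN-229 (5 and 6 reads), at 6.73 and 6.56 CPM in T98G, and at 15.8 and 14.4 CPM in U251. The libraries of the 3 lines did not overlap, although EEF1A2 never exceeded 0.0140 of EEF1A1 per kb. EIF4E3, an atypical member of the cap-binding eIF4E family, was at 18.2 and 15.8 CPM in T98G. The other lines held it at 0.159 and 0.202 CPM (LN-229) and at 0.115 and 0.208 CPM (U251), each from 6 to 21 reads. EIF4E itself was at 28.0 to 37.0 CPM in all 6 libraries, and EIF4E3 never exceeded 0.147 of it per kb. This ratio rests on an annotated EIF4E3 transcript of 9978 bases, and a shorter one in these cells would raise it. EIF5A2, the second eIF5A gene, was at 8.30 and 5.45 CPM in LN-229 and at 21.5 and 14.9 CPM in U251. In T98G it rested on 1 read per library, with 95% Wilson intervals up to 0.0820 and 0.0779 CPM. EIF5A was present in all 6 libraries at 87.0 to 202 CPM, and EIF5A2 never exceeded 0.0244 of it per kb. Here too the ratio depends on annotated lengths, 5534 bases for EIF5A2 and 1264 for EIF5A.

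**Figure D2:**
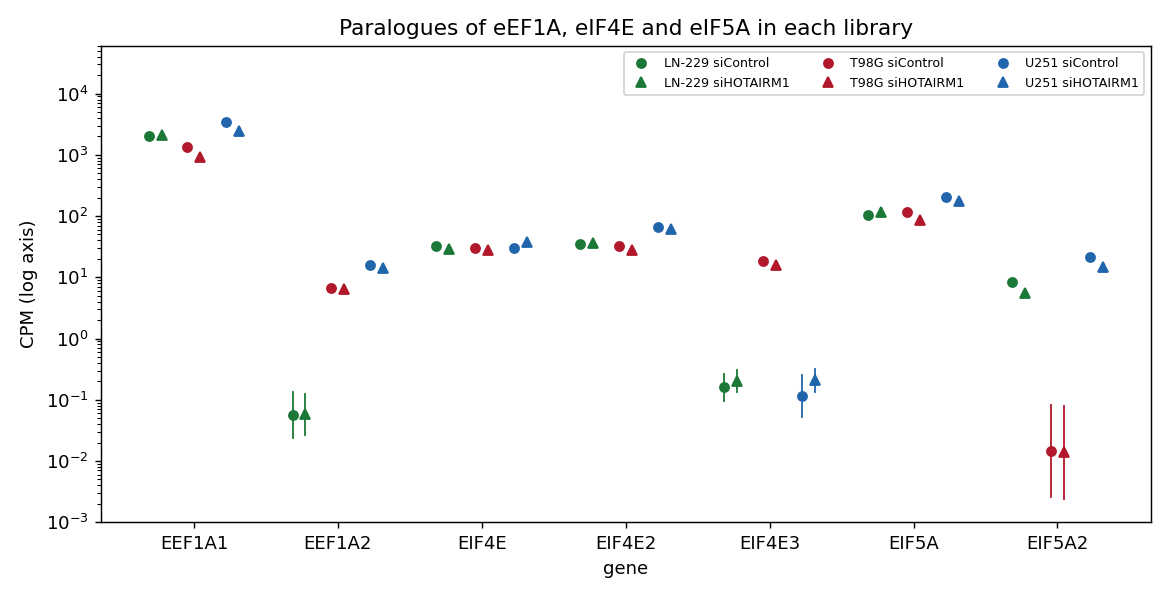
CPM (log axis) of the eEF1A, eIF4E and eIF5A paralogues in each library, circles for siControl and triangles for siHOTAIRM1, coloured by cell line, with 95% Wilson intervals that cover counting error only. EIF4E3 exceeds 1 CPM only in T98G, at 15.8 to 18.2 CPM, EIF5A2 rests on 1 read per library there, and EEF1A2 is at 0.0567 and 0.0578 CPM in LN-229.

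Other sets of paralogues differed by degree. EIF4A2 per kb was 0.344 and 0.345 of EIF4A1 in LN-229, 0.484 and 0.482 in U251, and 0.628 and 0.770 in T98G, siControl first. EIF4E2, an eIF4E homologue linked to repression, stood at 2.50 to 3.15 times EIF4E in LN-229 and T98G and at 5.56 and 4.17 times in U251. These values rest on annotated transcripts of 967 bases for EIF4E2 and 2427 bases for EIF4E. EIF4G2, which lacks the eIF4E-binding part, stood at 1.02 to 2.29 times EIF4G1, and EIF4G3 at 0.131 to 0.203 of it. EIF3C and EIF3CL, EIF5A and EIF5AL1, and EIF2S3 and EIF2S3L are near-identical copies between which the authors' counting may have split reads. Their ratios (0.354 to 0.421, 0.149 to 0.159 and 0.610 to 0.759) and the single values of these genes are uncertain. Rows of EEF1A1 pseudogenes held 56.3 to 57.7% of the sum of EEF1A1 and its pseudogenes, and those of EEF1B2 61.3 to 63.1%, so the levels of both genes are understated if those reads came from them. The same share was 42.0 to 44.2% for EIF2S2, 39.1 to 55.5% for EIF4E, 35.0 to 41.1% for EIF3F and 26.1 to 28.0% for EIF4A1.

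The lines were compared in limma with condition as a term, 2 libraries per line, for which the labels name no separate cultures. Between LN-229 and T98G, 26 of 57 factors passed the threshold of an adjusted p of 0.05 (21 higher and 5 lower in LN-229), beside 54.9% of all genes. Between LN-229 and U251, 30 passed (5 higher and 25 lower in LN-229), beside 60.6% of all genes, and between T98G and U251, 35 passed (2 higher and 33 lower in T98G), beside 64.2%. The total of factors called was thus near or below the background, whereas the directions were uneven: 30.8% of all genes were higher and 24.1% lower in LN-229 than in T98G, 23.9% higher and 36.7% lower in LN-229 than in U251, and 23.1% higher and 41.0% lower in T98G than in U251. With every library scaled to the same total of listed genes, the split became 22 and 6, 13 and 16, and 6 and 22, and with median centring 22 and 11, 7 and 23, and 5 and 28. Over all genes the listed total gave 4144 and 3709, 5252 and 3157, and 5170 and 3505 of 14306. Median centring gave 4050 and 4176, 4285 and 4589, and 4549 and 4641 of 14294. Most factors called between T98G and U251 were therefore higher in U251 under each scaling, while the lead of U251 over LN-229 depended on the scale. Fewer factors passed for LN-229 against T98G without the siHOTAIRM1 library of either line. LN-229 against U251 lost the largest number of factors without the siControl library of LN-229, and T98G against U251 without the siHOTAIRM1 library of T98G. Both contrasts with U251 also lost factors without its siControl library and without its siHOTAIRM1 library. The share of all genes passing fell in the same fits, in which the lone library of a line was assumed to vary like the others. No contrast was passed by 11 of the 56 factors with values, and 7 passed all 3. These counts were not made for all genes, so they have no background here.

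The 5 largest line differences among the factors were those of EIF5A2, EIF4E3, EEF1A2, EEF1B2 and EEF2. On the log2(CPM + 1) scale, which understates differences of low genes, EIF5A2 was lower in T98G than in U251 with a difference of -4.22 (SE 0.18, limma adjusted p = 3.38e-21) and EIF4E3 was higher by 3.95 (SE 0.16, limma adjusted p = 6.17e-22). EEF1A2 had a difference of -3.92 between LN-229 and U251 (SE 0.17, limma adjusted p = 6.10e-21). EEF1B2 was at 124 and 72.0 CPM in U251, at 49.1 and 54.0 CPM in LN-229 and at 31.5 and 22.9 CPM in T98G, and EEF2 at 1092 and 981 CPM, 438 and 497 CPM, and 358 and 293 CPM. T98G minus U251 was -1.78 for EEF1B2 (SE 0.19, limma adjusted p = 5.26e-10) and -1.67 for EEF2 (SE 0.24, limma adjusted p = 2.81e-07). By complex, T98G was lower than U251 for 10 of 14 eIF3 genes, 5 of 6 eEF1 genes and 4 of 5 eIF2B genes, and higher for none of them. Of the 11 tested genes of eIF4F and its partners, 3 were lower and 1 was higher.

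HOTAIRM1 knock-down gave no factor past the threshold. Of the 57 tested, 0 were called higher and 0 lower by limma with cell line as a block and Benjamini-Hochberg adjustment over all genes, beside 0.413% of all genes called higher and 1.59% called lower (59 and 227, or 286 of 14294). HOTAIRM1 itself had a log2 fold change of -0.54 (SE 0.12, limma adjusted p = 0.0146) on log2(CPM + 1), which understates the reductions in CPM given above. This call was lost with median centring, the listed total, no filter, no block, removal of the length trend, and without LN-229 or T98G. At an unadjusted p under 0.05 there were 13 factors (22.8%), all lower, beside 18.3% of all genes (14.2% lower and 4.19% higher). Across the lines 50 of the 57 log2 fold changes were below 0, in a fit whose median over all genes was itself -0.07. With the listed total that median was 0.05. The share of all genes below 0 in this fit was not counted. A paired t-statistic computed gene by gene called 0 factors, and gave none at an unadjusted p under 0.05. The 286 calls became 0 without the cell line as a block, 0 without T98G and 149 without U251.

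The lowest adjusted p belonged to EIF6, at 79.2 and 75.8 CPM in LN-229, 61.8 and 35.9 CPM in T98G, and 93.5 and 61.9 CPM in U251 (siControl first). EIF6 was lower in siHOTAIRM1 cells of all 3 lines, with a log2 fold change of -0.47 (SE 0.15, limma adjusted p = 0.0907). It passed the threshold with a pseudocount of 0.1 and without LN-229. In hg38, the minus-strand gene EIF6 spans chromosome 20 from 35278907 to 35284985. EIF2S1 was at 90.6 and 76.6 CPM in LN-229, 50.3 and 33.2 CPM in T98G, and 115 and 80.6 CPM in U251, also lower in each line (-0.44, SE 0.15, limma adjusted p = 0.0994). EEF1E1, an eEF1-related scaffold protein of the multi-synthetase complex, was almost level in LN-229 (17.7 and 17.6 CPM) and lower in T98G (13.7 and 9.64 CPM) and U251 (41.8 and 25.6 CPM), with -0.39 (SE 0.15, limma adjusted p = 0.150). These were the 3 largest decreases among the factors that moved the same way in all lines. EIF2S1 lies on chromosome 14 from 67360328 to 67386516, plus strand, and EEF1E1 on chromosome 6 from 8073360 to 8102559, minus strand.

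The remaining 10 of the 13 were EIF3E, EIF3M, EIF3H, EIF3K and EIF3I of eIF3, EIF2S2, EIF2A, EIF5A2, EEF1B2 and EEF2KMT, a methyltransferase of eEF2, with log2 fold changes of -0.47 to -0.30 and limma adjusted p of 0.124 to 0.262. EIF3E had the largest of these, at -0.47 (SE 0.17), with changes of 0.04, -0.39 and -1.07 in LN-229, T98G and U251. Its CPM were 92.7 and 95.3 in LN-229, 87.0 and 66.1 in T98G, and 227 and 107 in U251. EIF5A2 had changes of -0.53 in LN-229 and -0.51 in U251, the lines that express it.

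Within the lines the changes were not alike. The 57 factors had median changes of -0.01, -0.35 and -0.14 in LN-229, T98G and U251, beside 0.01, -0.19 and -0.03 for all genes. With the listed genes scaled to the same total, the median of U251 turned to 0.11. Relative to all genes the factors stood at -0.02, -0.16 and -0.12. Below 0 were 30, 56 and 40 factors in LN-229, T98G and U251, beside 46.3, 79.3 and 53.2% of all genes. Lower by more than 1.25-fold were 1, 33 and 18 factors, beside 3.23, 28.4 and 22.1% of all genes, and higher by more than 1.25-fold 0, 0 and 2, beside 5.18, 2.07 and 15.1%. In both T98G and U251, 36 factors (63.2%) lay below the median of all genes, beside 34.5% of all genes. Under the other scalings, pseudocount, filter and length settings this number was 29 to 39. The 29 came with the length trend removed, beside 33.2% of all genes, and the 39 with no filter, beside 47.4%. Lower in all 3 lines were 23 factors (40.4%), beside 28.1% of all genes, and 0 were higher in all 3, beside 11.4% of all genes. With the listed total, 19 factors were lower in all 3 lines, beside 16.8% of all genes. These shares describe the libraries, since each line had 1 library per condition and no test was possible within it.

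**Figure D3:**
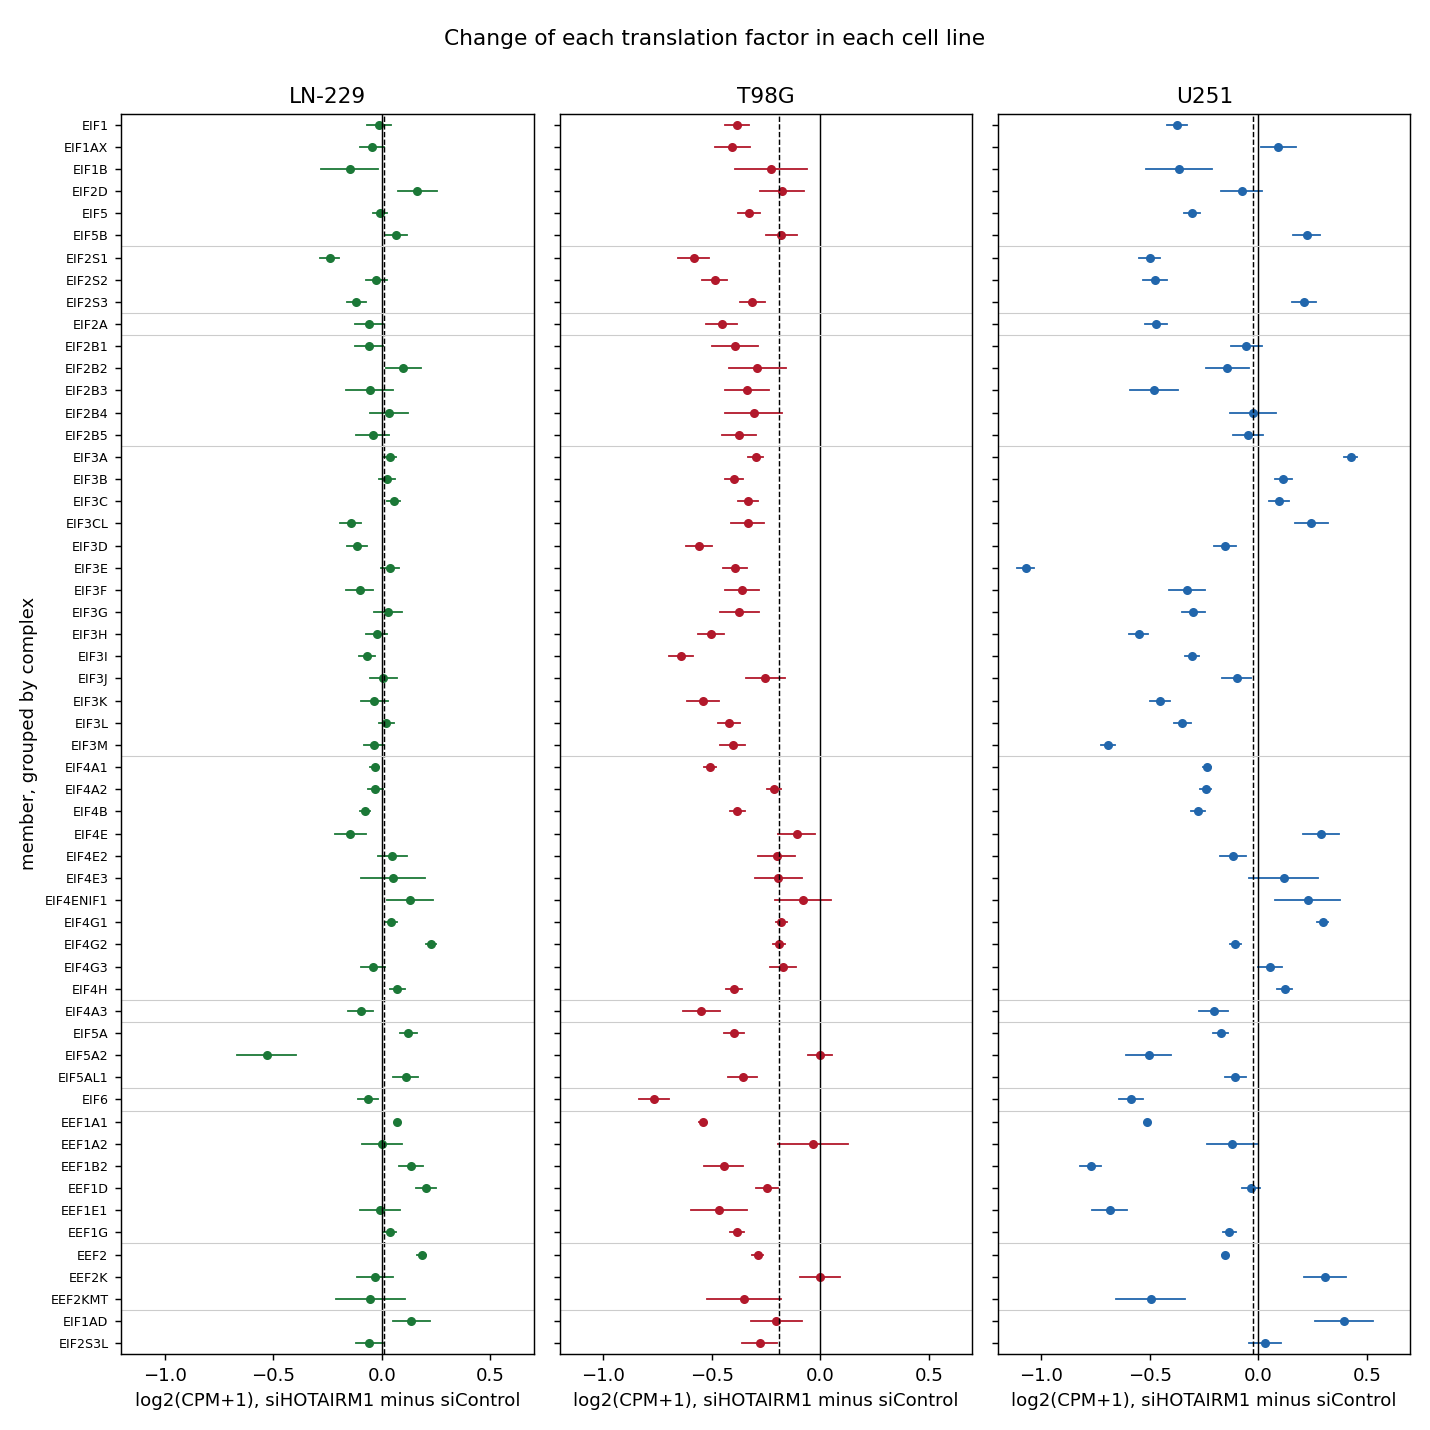
Change of each tested factor except EIF1AY, siHOTAIRM1 minus siControl in log2(CPM + 1), in a panel per cell line, with 95% intervals for counting error only, a solid line at 0 and a dashed line at the median of all genes (0.01, -0.19 and -0.03). LN-229 points gather near 0, T98G points lie almost all left of 0, and U251 points range from -1.07 for EIF3E to 0.42 for EIF3A.

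Of the complexes with more than 1 gene, eIF2 lay lowest in each line. Its medians relative to all genes were -0.13, -0.30 and -0.45 in LN-229, T98G and U251. EIF2S2, the beta subunit, was at 74.8 and 73.5 CPM in LN-229, 75.4 and 53.6 CPM in T98G and 87.1 and 62.3 CPM in U251. EIF2S3, the GTP-binding gamma subunit, did not follow in U251, with 69.7 and 80.7 CPM there against 77.3 and 62.1 CPM in T98G. EIF2A, which is not part of eIF2 in spite of its name, stood at -0.26 in T98G and -0.44 in U251 relative to all genes. The 5 eIF2B genes kept closer to the median in U251 (-0.03, and 0.04 with the listed total) than in T98G (-0.15, all 5 below). EIF2B3, the gamma subunit, was the lowest of them in U251, at 19.9 CPM in siControl and 14.0 CPM in siHOTAIRM1 cells.

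The 14 eIF3 genes split in U251. All 14 were below the median of all genes in T98G, with changes of -0.64 (EIF3I) to -0.25 (EIF3J). In U251, 10 were below it, and EIF3A, EIF3B, EIF3C and EIF3CL were above, so that the range ran from -1.07 to 0.42. LN-229 spanned only -0.14 to 0.06. EIF3A, the largest subunit, was at 250 and 336 CPM in U251, at 222 and 181 CPM in T98G and at 231 and 237 CPM in LN-229. EIF3M was at 241 and 149 CPM in U251, 79.8 and 60.1 CPM in T98G, and 76.7 and 74.7 CPM in LN-229. EIF3H was at 138 and 93.7 CPM in U251, 76.8 and 53.9 CPM in T98G, and 72.4 and 71.2 CPM in LN-229. EIF3M and EIF3H, and also EIF3A and EIF3C, belong to the core of 8 subunits built on PCI and MPN domains. The genes of this core had medians of -0.21 in T98G and -0.37 in U251 relative to all genes. In U251, 6 of them were lower and 2 higher on knock-down. The EIF3B, EIF3G and EIF3I module that joins this core had -0.20 and -0.27. The median of eIF3 in U251, -0.28, shrank to -0.11 after removal of the trend with transcript length.

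The genes of eIF4F and its partners stayed nearer to all genes, with relative medians of 0.03, -0.00 and 0.08 for LN-229, T98G and U251. Against the median of all genes without the filter on low values, they stood at -0.17 in T98G. In U251 this median was -0.00 with the listed total and -0.01 with pseudogenes summed, so that the sign depended on the setting. EIF4G1, the main scaffold, was at 381 and 468 CPM in U251, 337 and 298 CPM in T98G and 225 and 232 CPM in LN-229. EIF4E was at 30.2 and 37.0 CPM in U251, 30.2 and 28.0 CPM in T98G and 32.0 and 28.8 CPM in LN-229. EIF4A1, the helicase, was lower in T98G (341 and 240 CPM) and in U251 (732 and 620 CPM) and near level in LN-229 (402 and 393 CPM). EIF4B, which assists the helicase, was at 303 and 287 CPM in LN-229, 196 and 150 CPM in T98G and 240 and 197 CPM in U251. Relative to all genes of U251, EIF4E stood at 0.31 and EIF4G1 at 0.32, and EIF4A1 at -0.21 and EIF4B at -0.25. For EIF4E this depended on its 5 pseudogene rows, which held 55.5% of the joint sum in siControl and 44.1% in siHOTAIRM1 cells of U251. EIF4E and these rows together were at 67.8 and 66.2 CPM there. EIF4A3, a helicase of the exon junction complex and not of eIF4F, stood at -0.36 in T98G and -0.18 in U251 relative to all genes.

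The start-site and scanning factors had relative medians of -0.02, -0.09 and -0.16 in LN-229, T98G and U251. EIF1, which guards start codon choice, was at 56.0 and 55.5 CPM in LN-229, 79.4 and 60.6 CPM in T98G and 113 and 86.7 CPM in U251. EIF5, the GTPase activator of eIF2, was at 144.5 and 143.7 CPM in LN-229, 89.8 and 71.3 CPM in T98G and 184 and 149 CPM in U251. EIF5B went the other way in U251 (56.9 and 66.5 CPM) and was at 46.5 and 41.0 CPM in T98G.

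Among the elongation factors the eEF1 genes had relative medians of 0.04, -0.22 and -0.30 in the 3 lines, LN-229 first. EEF1A1 was at 2009 and 2108 CPM in LN-229, 1355 and 930.5 CPM in T98G and 3476 and 2439 CPM in U251, so that siHOTAIRM1 was the lower library in T98G and U251 and the higher one in LN-229. EEF1B2, with the values given above, had changes of 0.14, -0.44 and -0.77 in LN-229, T98G and U251. EEF1G was at 223 and 229 CPM in LN-229, 241 and 184 CPM in T98G and 255 and 233 CPM in U251. EEF1D was nearly level in U251 (135 and 132 CPM), lower in T98G (95.8 and 80.7 CPM) and higher in LN-229 (74.3 and 85.8 CPM). EEF2K was the one elongation gene that was not lower in either T98G (24.5 CPM in both libraries) or U251 (21.3 and 26.6 CPM).

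Of the factors, 9 belong to the classical TOP mRNAs: EEF1A1, EEF1B2, EEF1D, EEF1G, EEF2, EIF3E, EIF3F, EIF3H and EIF4B. Their medians relative to all genes were 0.03, -0.19 and -0.30 in LN-229, T98G and U251, beside -0.03, -0.14 and -0.09 for the other 48. All 9 lay below the median of all genes in T98G and in U251, though in U251 this became 8 with the listed total or a pseudocount of 0.1 and 7 after removal of the length trend. In LN-229, 3 of 9 did. The other factors had 39 of 48 below in T98G and 30 of 48 in U251. The difference between the lists was not tested, since the members were chosen with earlier results of these data known.

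**Figure D4:**
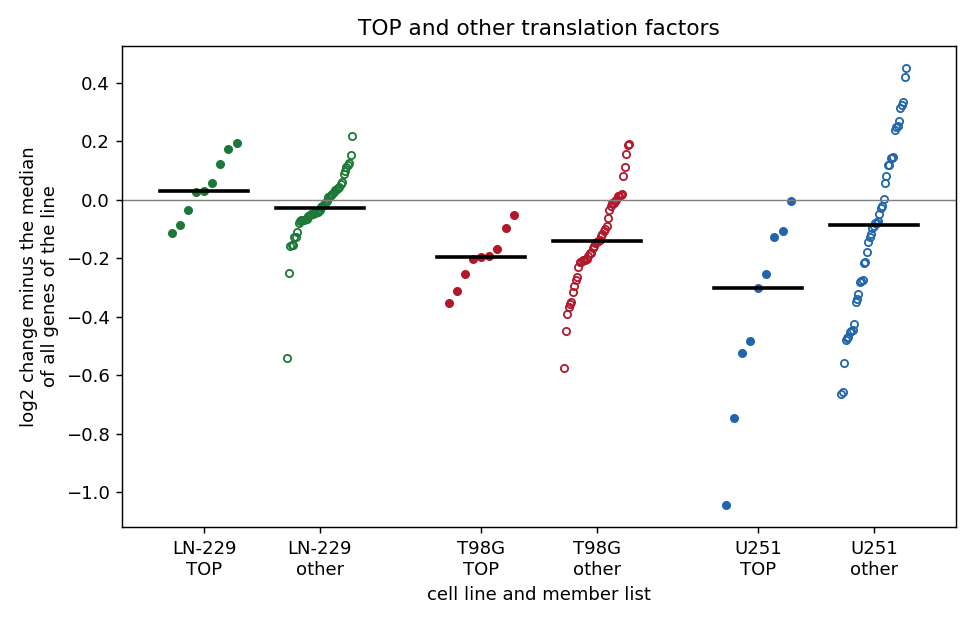
Change of each factor except EIF1AY, siHOTAIRM1 minus siControl in log2(CPM + 1), less the median of all genes of the line, for the 9 TOP members (filled) and the others (open), sorted within each list. Bars are the list medians, -0.30 for TOP members and -0.09 for the others in U251.

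A TOP tract starts at the first base of the mRNA with C followed by pyrimidines, and the first 20 bases from annotated RefSeq start sites (GRCh38.p14) show it for several of these genes. They are shown for TOP members, for 3 of the 8 other factors that share the feature (those among the 13 with an unadjusted p under 0.05), and for the 3 factors with the largest decreases common to all lines. Capitals mark an unbroken run of C and T of at least 5 bases that begins with C at the first base.

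EEF1A1: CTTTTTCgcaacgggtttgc
EEF1B2: CCTTTTTCCTCTCTTCagcg
EEF2: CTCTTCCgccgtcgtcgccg
EIF3F: CTTCTTTCTCgacaagatgg
EIF4B: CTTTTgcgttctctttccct
EEF1G: actttgcggcagcgccgaga
EIF3K: CTCTTCCTgttcccgtcctt
EIF3M: CTTTTCCggtcggcgtggtc
EIF2A: CTCTTTCCgggacaacatgg
EIF6: gtgtgaggggaacctgggag
EIF2S1: atgcgcggtggagtgagcga
EEF1E1: gcgtctgccaggagctacgg

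In the order printed, the first 6 lie at chr6:73521013-73521032 (minus strand), chr2:206159895-206159914 (plus), chr19:3985444-3985463 (minus), chr11:7987337-7987356 (plus), chr12:53006456-53006475 (plus) and chr11:62573872-62573891 (minus). The others lie at chr19:38619188-38619207 (plus), chr11:32583831-32583850 (plus), chr3:150546787-150546806 (plus), chr20:35284698-35284717 (minus), chr14:67360328-67360347 (plus) and chr6:8102529-8102548 (minus). EEF1B2 and EIF6 have a further RefSeq start, neither with such a run. A C-led run was found for 13 of the 48 factors with a RefSeq start sequence (27.1%), for 5 of 6 TOP members and for 8 of the 42 others, beside 5.14% of 27305 genes. The 13 with a run had relative medians of -0.05, -0.19 and -0.25 in LN-229, T98G and U251, and the 34 tested factors without one had -0.02, -0.14 and -0.08. The other 5 factors with a run were EIF2D, EIF3D, EIF4A2, EIF2S3 and its copy EIF2S3L, with changes in U251 of -0.08, -0.15, -0.24, 0.21 and 0.03. EIF6, EIF2S1 and EEF1E1, with the values given above, had none at the starts read.

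Changes also moved with transcript length, over all genes as over the factors. Spearman's rho of change with length was 0.30 in T98G, 0.33 in U251 and -0.00 in LN-229 over 56 factors, and 0.23, 0.31 and -0.03 over 13129 genes. These are correlations across genes of the same pair of libraries, and genes are not independent replicates. The 28 shorter factors (772 to 2563 bases) had a median change of -0.22 in U251 and -0.38 in T98G, and the 28 longer ones -0.04 and -0.32. By annotated transcript, the median length was 3158 bases for TOP members and 2563 bases for the other factors. The lengths used in these cells, as for EIF3F (annotated at 6920 bases), may differ. The part of length in the decreases was not tested beyond removing its trend, after which the relative median of the factors was -0.13 in T98G and -0.07 in U251.

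**Figure D5:**
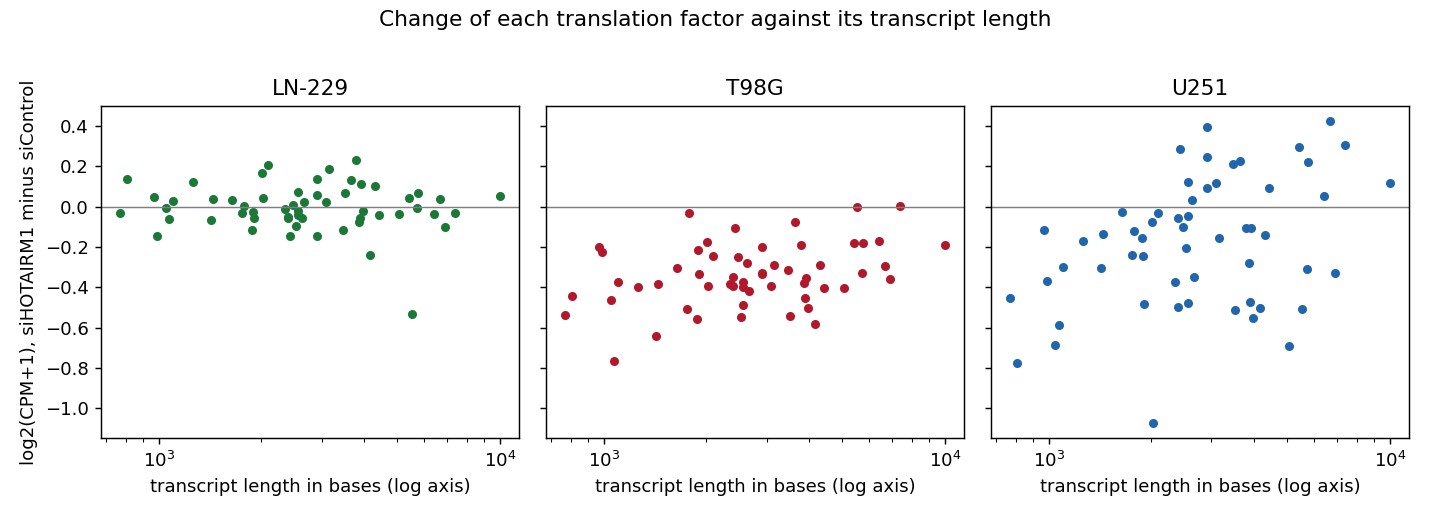
Change of each tested factor except EIF1AY, siHOTAIRM1 minus siControl in log2(CPM + 1), against the length of its annotated transcript in bases (log axis), in a panel per cell line. Spearman's rho is -0.00, 0.30 and 0.33 in the panels from left to right, and EIF3E is the lowest point of U251 at -1.07.

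Of 34 genes that regulate or assist these factors, 32 were tested and 0 passed the threshold in limma. Of all genes, 0.413% were called higher and 1.59% lower. Of the 32, 9 had an unadjusted p under 0.05 (7 lower, 2 higher), beside 18.3% of all genes (14.2% lower, 4.19% higher). The lowest adjusted p was that of MCTS1, which with DENR recycles ribosomal subunits and restarts scanning. MCTS1 was at 6.10 and 5.92 CPM in LN-229, 17.9 and 11.5 CPM in T98G, and 44.6 and 24.0 CPM in U251 (-0.50, limma adjusted p = 0.0741), and DENR was lower in each line too (-0.34, limma adjusted p = 0.185). RPTOR, the raptor subunit of mTOR complex 1, was higher in each line, at 23.9 and 31.5 CPM in LN-229, 23.3 and 27.5 CPM in T98G and 14.5 and 24.8 CPM in U251 (0.45, limma adjusted p = 0.0882). MKNK2, a kinase of eIF4E, was higher in LN-229 and U251 and near level in T98G (0.35, limma adjusted p = 0.197). EIF4EBP1, the eIF4E inhibitor that mTOR silences, was at 34.0 and 32.1 CPM, 19.3 and 11.5 CPM, and 28.8 and 25.9 CPM (-0.31, limma adjusted p = 0.260). The termination factor ETF1 (-0.39, limma adjusted p = 0.191) and the recycling factor ABCE1 (-0.40, limma adjusted p = 0.134) were lower in all lines, whereas GSPT1, the partner of ETF1, had 0.07 (limma adjusted p = 0.862). The median changes of the 32 were -0.02, -0.28 and -0.05 in LN-229, T98G and U251, beside 0.01, -0.19 and -0.03 for all genes.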

How the data were processed

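RNA sequencing libraries of LN-229 (LNT229 in the sample titles), T98G and U251 cells, 3 siControl and 3 siHOTAIRM1, were used. The authors prepared them from 500 ng of total RNA (TruSeq RNA v2), sequenced 101 cycles, trimmed 13 bases at the 5' and 1 at the 3' end in Partek Flow, aligned to hg38 with STAR 2.4.1d and then Bowtie 2, and quantified with an Expectation-Maximization algorithm on Ensembl release 84. The deposited values are CPM, to which the authors added 0.0001.

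Differences were taken on log2(CPM + 1). The 14294 genes averaging 1 CPM or more were tested with limma 3.58.1 (R 4.3.3), mean-variance trend, a block for the cell line and the Benjamini-Hochberg method at 0.05, and the lines were compared in the same fit. The study's methods name a paired t-test, which was run as an alternative. The samples were paired by their cell line labels. Same-line libraries deviated together from the mean of their condition (r of 0.948 to 0.967, against -0.505 to -0.467 between libraries of different lines and conditions). Subtracting that mean pushes r between lines below 0, so these values reflect cell line identity and are no test of the pairing. The worth of 1 read was read from the steps of low values. Only 83.0 to 85.0% of low values were whole (within 0.02), so no count test was run. Intervals are 95% Wilson for levels and cover counting error only, from PCR reads without molecular identifiers. The fits were tested on simulated data.

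Transcript lengths came from GENCODE v44 (MANE, canonical or longest transcript, 58 of 58 factors matched), starts from RefSeq. The factors, complexes, the TOP list and the 34 related genes were chosen with earlier results of these data known. Genes named are factors past the threshold, the 3 largest rises and falls among those moving alike in all lines, the highest of each complex, the sets of paralogues, and the 5 largest line differences, to which further factors were added after their values were seen. Alternatives were a pseudocount of 0.1, no filter, median centring, scaling to the listed total, no block, the paired t-statistic, summed pseudogenes, removal of the length trend, and leaving out each line or library. Python 3.11.15 with pandas 2.3.3, numpy 2.4.6, scipy 1.17.1 and matplotlib 3.10.9 was used.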

Additional observations from a re-analysis of the deposited data

Results flagged for a closer look

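For 16 factors the change on knock-down, taken against the median gene of that line, went one way in one line and the opposite way in another, each beyond counting error. With 1 library per line and condition, these differences between lines were not tested. The same count was not made over all genes, so the 16 cannot be judged against a background. For each gene the pair of lines furthest apart is given, as the first line minus the second on the log2 scale. Between LN-229 and U251 the difference was 0.54 for EEF1A1, 0.87 for EEF1B2, 0.30 for EEF2, 0.20 for EIF2B2 and 0.30 for EIF4G2, with the change higher in LN-229. In the same pair it was -0.37 for EIF2S3, -0.43 for EIF3CL and -0.47 for EIF4E, with the change higher in U251. Between LN-229 and T98G it was 0.25 for EEF1D, 0.32 for EIF5A and 0.26 for EIF5AL1. Between T98G and U251 it was -0.33 for EIF1AX, -0.56 for EIF3A, -0.35 for EIF3B, -0.26 for EIF3C and -0.35 for EIF4H. With their pseudogene rows added, EIF1AX was at 45.5 CPM in siControl and 45.2 CPM in siHOTAIRM1 cells of U251, and EIF4E at 67.8 and 66.2 CPM, so that neither was higher on knock-down there. EIF3C with EIF3CL, EIF5A with EIF5AL1, and EIF2S3 share reads with a near-identical copy.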

How the results depend on the processing

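The number of factors called lower was 1 (EIF6) with a pseudocount of 0.1 and 0 to 1 without each line in turn, and 0 under every other alternative, while 0 were called higher under all. The 286 genes called became 683 with a pseudocount of 0.1, 632 with the length trend removed, 41 with median centring (36.6% of them higher, against 20.6%), and 0 with no filter, the listed total, no replicate block (29 at an unadjusted p under 0.05) or the paired t-statistic (896), and 0 (without T98G) to 270 without each line. The log2 fold change of HOTAIRM1 lost its call at -0.54 (no filter, no replicate block and paired t-statistic), -0.46 (median centring), -0.45 (listed total) and -0.40 (length trend removed), and ranged from -0.56 to -0.50 without each line. Leaving out each library in turn, factors called ranged from 12 to 26 for LN-229 against T98G (12 without siHOTAIRM1 of LN-229, 15 without that of T98G) and from 17 to 29 for LN-229 against U251 (17 without siControl of LN-229). The median change of the factors moved to -0.15 and -0.13 in T98G and to -0.066 and 0.11 in U251 with median centring and the listed total, and to -0.090 in U251 with the length trend removed. Relative to all genes it moved to -0.052 in U251 with the listed total, and to -0.33 in T98G against the median of all genes with no filter, which covers many genes near 0. The relative median of eIF4F and its partners in U251 turned to -0.0035 with the listed total and -0.0053 with pseudogenes summed. With no filter the tests covered 35995 genes, and factors at an unadjusted p under 0.05 fell from 13 to 3. With no block the spread between lines stayed in the error. The cause of the moves was not tested for any alternative. Depth of 52.3 to 104 M reads left EIF5A2 in T98G and EIF4E1B at the limit of detection, and 1 library per line and condition left no test within a line.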
